A study of Homo sapiens with 32 samples.

Results

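U-DNA-Seq maps uracil in genomic DNA by pulling down fragments with FLAG-ΔUNG, a sensor made from a glycosylase that binds uracil but no longer cuts it, and sequencing them beside the sonicated input. The comparison described here set HCT116 cells treated with 5-fluoro-2′-deoxyuridine (5FdUR) against the same cells without drug, and asked where in the genome the regions of uracil enrichment lay in each. The members were the 4 replicate region files of these conditions, 2 labelled 5FdUR_UGI and 2 labelled NT_UGI, of the 32 samples of the series. HCT116 is a human colorectal carcinoma line that lacks working mismatch repair (MMR). All 4 libraries came from cells with stable expression of UGI, a small protein that blocks the glycosylase UNG, so the controls carried the inhibitor as well. UGI was delivered with EGFP by a retroviral vector and the GFP-positive cells were sorted as a population. The 5FdUR_UGI cells received 20 µM 5FdUR for 48 h and the NT_UGI cells received none. According to the study's methods the replicates were biologically independent. The drug-treated cells were described there as delayed in S phase, so drug and cell cycle position cannot be told apart here. The region files hold DNA positions only, so neither the identity of the cells nor the UGI transgene could be checked in them.

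Uracil enters DNA when dUTP is used in place of dTTP during replication, or when cytosine is deaminated. The cell keeps dUTP low through dUTPase, makes dTMP from dUMP by thymidylate synthase, and removes uracil through base excision repair that UNG, TDG, SMUG1 or MBD4 can start. 5FdUR is converted to a nucleotide that blocks thymidylate synthase. UNG is the main enzyme of uracil removal, and with UGI uracil persists in the DNA. 5FdUR can also be built into DNA itself, and the study states that the sensor binds fluorouracil too, so uracil and fluorouracil cannot be told apart in the treated libraries.

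Short windows illustrate sequence covered in one condition only. Each is the central 300 bases, on the plus strand of GRCh38, of the longest stretch that both libraries of one condition and neither library of the other covered, in the leading runs of adjacent bins described further on. Capitals mark CpG dinucleotides. The first window lies outside annotated genes in a stretch of 164600 bp and the second lies in an intron of LAPTM5 in a stretch of 115700 bp, and both stretches were covered after 5FdUR only.
chr1:24976751-24977050, 5FdUR_UGI only: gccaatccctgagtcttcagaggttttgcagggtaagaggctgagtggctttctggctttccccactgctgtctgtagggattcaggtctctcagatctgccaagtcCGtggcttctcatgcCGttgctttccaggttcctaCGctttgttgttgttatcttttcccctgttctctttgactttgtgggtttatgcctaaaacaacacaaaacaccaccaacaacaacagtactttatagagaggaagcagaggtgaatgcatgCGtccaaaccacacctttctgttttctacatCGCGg
chr1:30734301-30734600, 5FdUR_UGI only: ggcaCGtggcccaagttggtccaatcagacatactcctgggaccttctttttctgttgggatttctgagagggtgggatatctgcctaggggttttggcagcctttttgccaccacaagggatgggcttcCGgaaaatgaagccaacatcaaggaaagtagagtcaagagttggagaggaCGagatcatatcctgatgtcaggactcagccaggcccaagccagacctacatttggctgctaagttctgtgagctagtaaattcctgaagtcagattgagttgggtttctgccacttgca
The other window lies between exons of the long non-coding RNA gene LINC03000, in a stretch of 19900 bp that was covered without drug only.
chr5:164565601-164565900, NT_UGI only: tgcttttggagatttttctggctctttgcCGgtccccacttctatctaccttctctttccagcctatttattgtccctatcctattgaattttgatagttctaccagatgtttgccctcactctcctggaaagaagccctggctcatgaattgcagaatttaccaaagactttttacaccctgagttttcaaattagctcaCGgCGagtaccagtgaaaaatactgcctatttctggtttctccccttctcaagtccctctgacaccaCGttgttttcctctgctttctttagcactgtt
These windows are examples and were not compared with each other.

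A region is a run of 100 bp steps in which coverage in the pull-down over coverage in the input, on the log2 scale, was above a threshold that the authors set for each library. That threshold was chosen so that replicates reached about the same total length, and so the totals are not findings. The regions covered 510.2 and 502.1 Mb in the 5FdUR_UGI libraries (replicates 1 and 2, the order used throughout) and 320.7 and 325.1 Mb in the NT_UGI libraries. The lowest log2 value was 0.25 and 0.14 after 5FdUR and 0.29 and 0.32 without drug. Replicate 2 of 5FdUR_UGI stood apart from replicate 1 in this threshold, and at a log2 value of at least 0.33 it held 177.9 Mb against 430.1 Mb. The region files hold no read counts, and read totals were not used here, so the spread between replicates is the only measure of error. With 2 libraries against 2 an exact permutation test cannot go below p = 0.333, so single values are given without a test.

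The regions were longer after 5FdUR. The N50 of region length, the length at or above which regions hold 50% of the bases, was 20100 and 8500 bp after 5FdUR and 5300 and 4900 bp without drug. Both 5FdUR_UGI libraries were above both NT_UGI libraries, and the group means differed by 1.49 on the log2 scale. Without 5FdUR_UGI replicate 1 this difference was 0.74. The 5FdUR_UGI libraries held 1582 and 657 regions of at least 50 kb, and the NT_UGI libraries held 2 and 0. These long regions made up 29.2% and 10.9% of the region bases after 5FdUR. The median region was not longer, at 1100 bp in both 5FdUR_UGI libraries and 1400 and 1200 bp without drug. The longest region after 5FdUR was 404800 bp (chr10:71489701-71894500) in replicate 1, and replicate 2 covered 95.0% of it. The longest in replicate 2 was 463000 bp (chr5:987101-1450100), of which replicate 1 covered 93.4%. The NT_UGI libraries covered 0% and 0.54% of the second and none of the first. The longest regions without drug were 64400 bp in RIMS1 on chromosome 6 and 45800 bp at SLC25A48 on chromosome 5, named because they were longest.

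**Figure D1:**
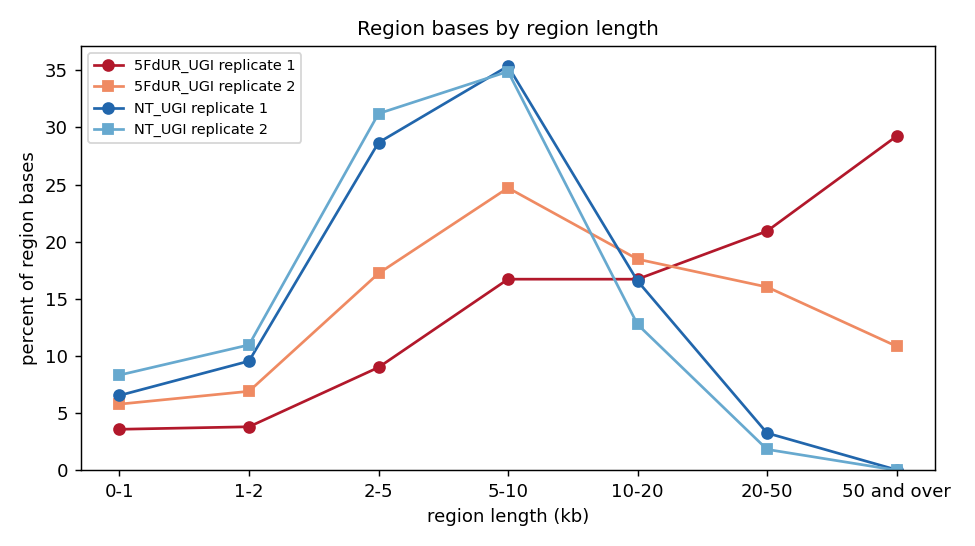
Percent of region bases (y axis) by region length in kb (x axis) for each of the 4 libraries, 1 line per library. Regions of 50 kb and over hold 29.2% and 10.9% of the bases after 5FdUR and under 0.1% without drug.

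The longer regions after 5FdUR did not reach higher values. The highest log2 value of any region was 0.783 and 0.766 after 5FdUR and 1.19 and 1.42 without drug. The groups did not overlap, and the highest value was lower with the drug. Few regions set this contrast. A log2 value of at least 1 was reached by 4 and 10 regions without drug, holding 0.0344 and 0.0765 Mb. Each value is a ratio within its own library and does not measure total uracil. The study's dot blots showed more genomic uracil in drug-treated cells than in untreated ones. A lower log2 value or covered share therefore does not mean less uracil in the DNA. Within each library the values did rise with length, as from a median of 0.26 in regions under 1 kb to 0.534 in those of at least 50 kb in 5FdUR_UGI replicate 1. Averaged over region bases, the log2 value was 0.443 and 0.302 after 5FdUR and 0.424 and 0.435 without drug, and these overlapped. These means also carry the threshold of each library. In the NT_UGI libraries this mean was 0.437 and 0.448 in regions with a GC content under 35% and 0.354 and 0.386 at 38 to 41%. In the 5FdUR_UGI libraries it ran the other way, from 0.294 and 0.192 under 35% to 0.473 and 0.348 at 48 to 52%. Region length changed with GC content as well, with a median without drug of 2300 and 1700 bp under 35% and 800 bp in both at 38 to 41%. In regions of at least 5 kb the NT_UGI values showed no steady fall. Their median was 0.457 and 0.470 under 35%, 0.437 and 0.452 at 38 to 41% and 0.558 and 0.592 at 41 to 44%.

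The bases covered in the 2 conditions were almost separate. The Jaccard index, the bases shared by a pair of libraries over the bases in either, was 0.416 between the 5FdUR_UGI replicates and 0.374 between the NT_UGI replicates. Over the 4 pairs of a treated with an untreated library it was 0.0137 ± 0.00763 (mean ± SD), with a range of 0.00569 to 0.0219. The 5FdUR_UGI replicates shared 297.6 Mb, and 98.5% of it lay in no NT_UGI region. The NT_UGI replicates shared 175.7 Mb, and 95.1% of it lay in no 5FdUR_UGI region. All 4 libraries shared 0.816 Mb.

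The genome was then divided into 29165 bins of 100 kb, and the share of known bases covered by regions was compared by limma on log2(percent + 1) with Benjamini-Hochberg adjustment over the 26428 bins with a mean share of at least 1%. The covered share was higher after 5FdUR in 7357 bins (27.8% of those tested) and lower in 7666 (29%) at an adjusted p under 0.05. The bins that rose averaged 54.04% covered with the drug and 1.52% without. The bins that fell averaged 0.534% and 23.7%. The shares behind these averages also chose the bins, so the averages only describe the called bins. Without a test, both 5FdUR_UGI libraries were above both NT_UGI libraries in 9551 of all bins (32.7%) and below them in 12334 (42.3%). Without NT_UGI replicate 1 there were 3532 higher and 4894 lower bins, and without NT_UGI replicate 2 there were 3692 and 4470. In such fits the spread came from the other pair alone, and the lone library was assumed to vary like that pair. With bins of 1 Mb the balance turned, at 1232 higher and 845 lower. With regions taken in order of falling log2 value up to 300 Mb in every library, which removes the difference in total length, 4258 bins were higher and 11544 lower.

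The bins that rose were richer in GC and in gene starts. Their mean GC content was 45.7% against 36.9% in the bins that fell, and they held 1.36 against 0.211 starts of protein-coding genes per bin. Over region bases the GC content was 46.2% in both 5FdUR_UGI libraries and 33.5% and 33.9% in the NT_UGI libraries, a difference of 12.4 percentage points around the 40.9% of the genome. The density of CpG dinucleotides was 14.5 and 15.2 per kb after 5FdUR and 5.19 and 5.26 per kb without drug. In bins with a GC content under 35% the covered share was 0.149% and 5.17% after 5FdUR and 51.4% and 45.9% without. At 38 to 39% it was 5.996% and 7.79% against 7.73% and 9.31%, and the groups overlapped. At 48 to 50% it was 51.6% and 44.7% against 0.243% and 0.513%. Of the tested bins of that class 77.7% rose, and of those under 35% GC 65% fell. How far the GC content of a fragment acts on pull-down, amplification or sequencing was not tested, and the log2 ratio to input was the only correction for it.

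**Figure D2:**
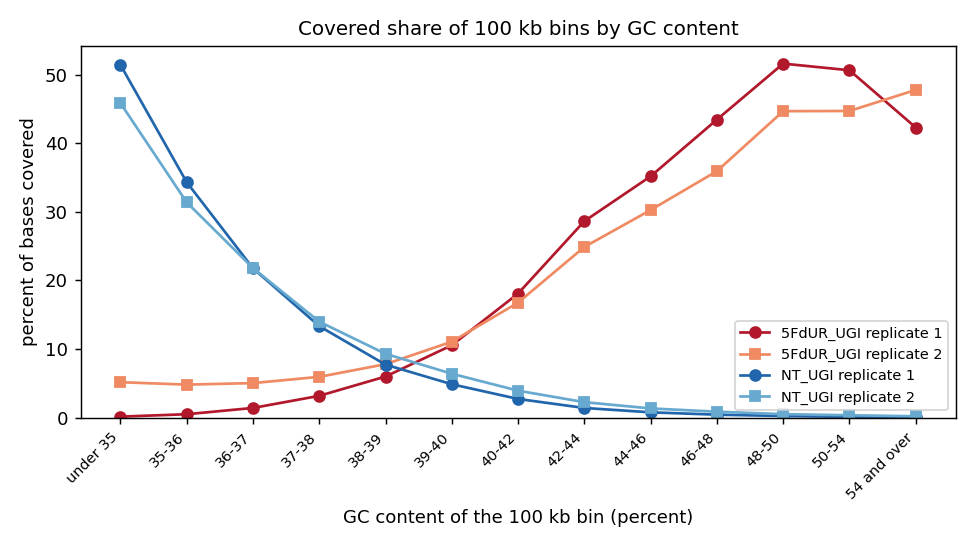
Percent of bases covered (y axis) in 100 kb bins grouped by GC content (x axis), 1 line per library. The treated and untreated lines cross between 38 and 40% GC.

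The covered share also followed the distance from gene starts. Within 1 kb of the start of a protein-coding gene 39.7% and 35.8% of bases were covered after 5FdUR and 1.56% and 1.42% without drug. At 100 to 200 kb the values were 10.04% and 13.8% against 10.1% and 10.7%, and the groups overlapped. Beyond 500 kb the order was turned, with 0.414% and 4.34% after 5FdUR against 25.01% and 23.4%. The GC content fell from 54.2% to 37.02% over the same classes, so distance and GC content moved together. Among annotated parts of the genome, coding sequence was covered to 30.3% and 27.2% after 5FdUR and 5.48% and 4.90% without. Introns of coding genes were covered to 16.2% and 15.3% against 9.03% and 9.29%, and whole bodies of coding genes to 17.3% and 16.1% against 8.80% and 8.97%. Sequence outside all annotated genes was covered to 18.9% in both 5FdUR_UGI libraries, more than introns or gene bodies, against 12.7% and 12.8% without drug.

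**Figure D3:**
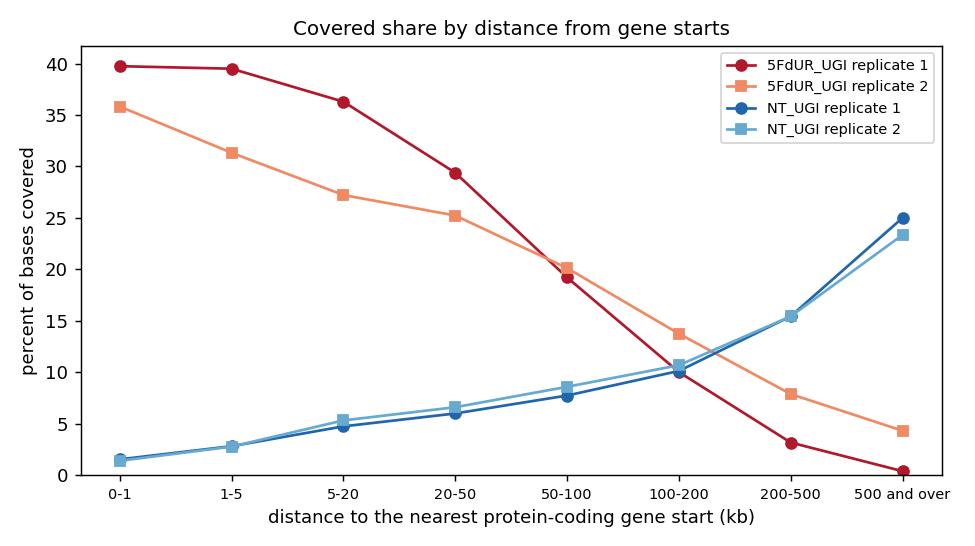
Percent of bases covered (y axis) by distance to the nearest start of a protein-coding gene in kb (x axis), 1 line per library. After 5FdUR the share falls from 39.7% and 35.8% within 1 kb to 0.414% and 4.34% beyond 500 kb, while without drug it rises.

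Of the 23 chromosomes 19 were covered more in both 5FdUR_UGI libraries than in both NT_UGI libraries, 2 less, and 2 overlapped. Since the total length was set by the authors' threshold, the order of the chromosomes says more than the sign. The largest differences were on chromosome 22, with 29.4% and 27.1% against 1.44% and 1.93%, on chromosome 17, with 30.5% and 22.2% against 3.52% and 4.18%, and on chromosome 20, with 24.9% and 23.1% against 3.43% and 4.05%. Chromosomes 4 and 13 went the other way. Chromosome 4 was covered to 11.2% and 14.7% after 5FdUR and 20.5% and 19.3% without, and chromosome 13 to 11.6% and 15.1% against 20.8% and 19.4%. Chromosome 18 had the next lowest difference, at 11.5% and 13.7% against 12.6% and 12.5%, and its groups overlapped.

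**Figure D4:**
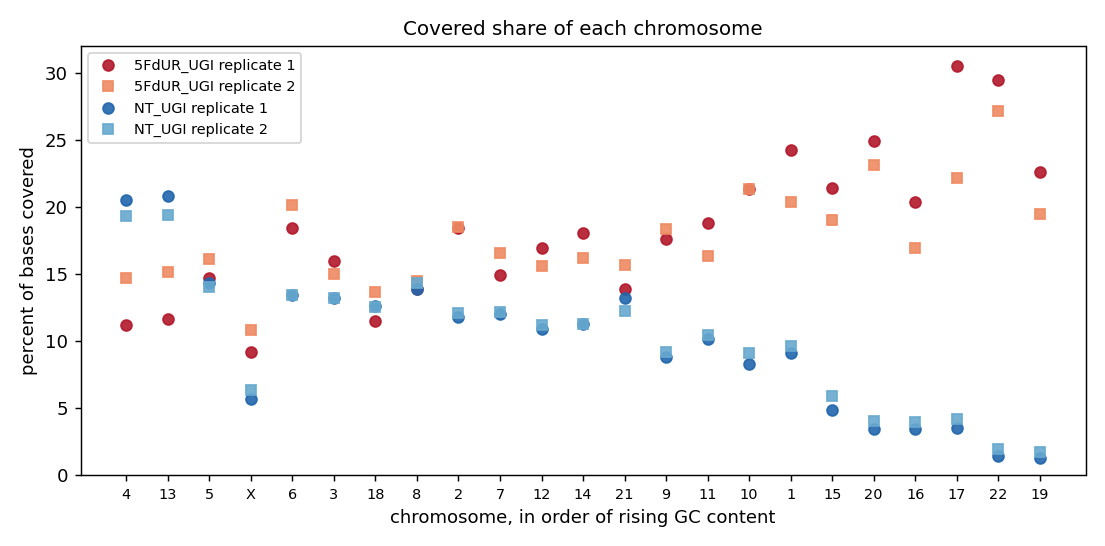
Percent of known bases covered (y axis) for each chromosome, in order of rising GC content (x axis), 1 point per library. On chromosomes 4 and 13, at the left, the untreated points are higher, and on chromosomes 17, 20 and 22 the treated points are higher.

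Most runs of adjacent bins called in one direction were short, with a median of 2 bins for those that rose and 1 bin for those that fell. Of 2356 runs that rose 104 had at least 10 bins and held 1333 of the 7357 bins, and of 2935 runs that fell 105 did and held 1564 of the 7666. The longest run of bins that rose was chr1:23900001-26400000, with 45 protein-coding genes. MAN1C1, GRHL3 and CLIC4 were its longest. It was covered to 76.2% and 44.1% after 5FdUR and 0.608% and 0.84% without drug. Next came chr8:142000001-144400000 around TSNARE1, MROH1 and ZC3H3, at 70.0% and 68.5% against 0.108% and 0.425%. It held 71 protein-coding genes at a GC content of 55.7%. The other leading runs that rose were on chromosome 1 around PTPRU, on chromosome 1 around NUP133 and WNT3A, and on chromosome 16 around NUP93, GINS3 and CNOT1. Their shares were 52.1 to 74.6% after 5FdUR and at most 1.48% without. The longest run that fell was chr8:111100001-115100000, whose only protein-coding gene was CSMD3. It was covered to 0% and 0.973% after 5FdUR and 60.8% and 55.5% without drug. The run at chr11:23500001-26900000 with LUZP2 and ANO3 had 0% and 1.31% against 36.3% and 32.5%. The run on chromosome 9 that held PTPRD, a receptor tyrosine phosphatase, had 0% and 1.30% against 40.7% and 35.3%. In all 5 leading runs that fell, replicate 1 of 5FdUR_UGI had no region at all.

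Protein-coding genes were compared in the same way by the covered share of the gene body. The share was higher after 5FdUR in 7026 of 16649 genes tested (42.2%) and lower in 1354 (8.13%). Of the genes that rose, 5951 were at 0% in both NT_UGI libraries, so percentages are given in place of folds. A gene at 0% had no region above the threshold, which does not mean that it held no uracil. Without NT_UGI replicate 2 the counts were 4093 and 886, and without NT_UGI replicate 1 they were 4033 and 929. With regions up to 300 Mb in every library they were 3331 and 2221. Genes that rose had a median GC content of 49.9% and genes that fell one of 36.8%. Gene length ran with direction. Of the tested genes under 10 kb 49.5% rose and 3.56% fell, and of those of at least 500 kb 7.69% rose and 41.3% fell. Genes of at least 500 kb were covered to a mean of 2.64% and 6.29% after 5FdUR and 15.2% and 14.97% without.

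By the rule of the largest difference among genes of at least 50 kb, 10 genes that rose were covered fully in both 5FdUR_UGI libraries and not at all in both NT_UGI libraries. They were RUNX3, a Runt family transcription factor, the calcium channel genes CACNA1S and CACNG4, the kinase gene CAMK2A, the corticotropin releasing hormone receptor gene CRHR1, the kinesin gene KIF1A, RALGDS, FBLN2, HS1BP3 and NDRG1. For RUNX3 (chr1:24899511-24965121) the limma estimate was 6.66 on the log2(percent + 1) scale with an SE of 0.0466 and an adjusted p of 3.27e-05. Its replicates had no spread, as in 961 of the genes tested, so this SE rests on the variance the fit borrowed from other genes. Among the genes that fell most, SI, which encodes sucrase-isomaltase, was covered to 0% and 4.61% after 5FdUR and 76.6% and 81.0% without drug (adjusted p = 0.0418, limma). GABRG1, a subunit of the GABA-A receptor, had 0% and 2.15% against 75.8% and 74.8% (adjusted p = 0.0155, limma). CALCRL, the receptor component for CGRP and adrenomedullin, had 0% in both against 69.8% and 75.3%. CSMD3 had 0% and 0.601% against 68.4% and 62.7%. COL11A1, a fibrillar collagen gene, had 0% and 4.09% against 68.0% and 61.6%. The others by this rule were CDH19, EPHA7, RGS21, CCDC172 and TECRL, at most 5.04% covered after 5FdUR.

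Genes of thymidylate and dUTP metabolism make, salvage or break down the nucleotides that 5FdUR acts on. Of the 28 listed 23 were tested, 13 rose (56.5%, beside 42.2% of all genes tested) and 1 fell (4.35%, beside 8.13%). TYMS, which encodes thymidylate synthase, was covered to 42.5% and 41.2% after 5FdUR and 0% in both NT_UGI libraries (adjusted p = 0.000215, limma). SLC29A1, the equilibrative nucleoside transporter, had 73.5% and 61.9% against 0% in both. DCTD, the dCMP deaminase, had 43.2% and 77.9% and UPP1, a uridine phosphorylase, had 47.0% and 72.3%, both against 0%. TK1, the cytosolic thymidine kinase that phosphorylates 5FdUR, had 93.2% and 17.3% against 0% (adjusted p = 0.0336, limma). RRM2, the small subunit of ribonucleotide reductase, had 65.0% and 36.3% against 0%. Its damage-induced counterpart RRM2B was the gene that fell, at 0% in both 5FdUR_UGI libraries against 27.8% and 22.3% (adjusted p = 0.00197, limma). For several genes the treated replicates disagreed and no call was made. DUT, which encodes dUTPase, had 1.61% and 50.8% against 0%. MTHFD2 had 95.2% and 1.59%, CDA, the cytidine deaminase, had 87.3% and 2%, and FPGS had 77.4% and 0%, all against 0%. DPYD, which encodes the enzyme that degrades fluorouracil, had 0.164% and 8.74% against 36.7% and 34.2% (adjusted p = 0.136, limma).

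**Figure D5:**
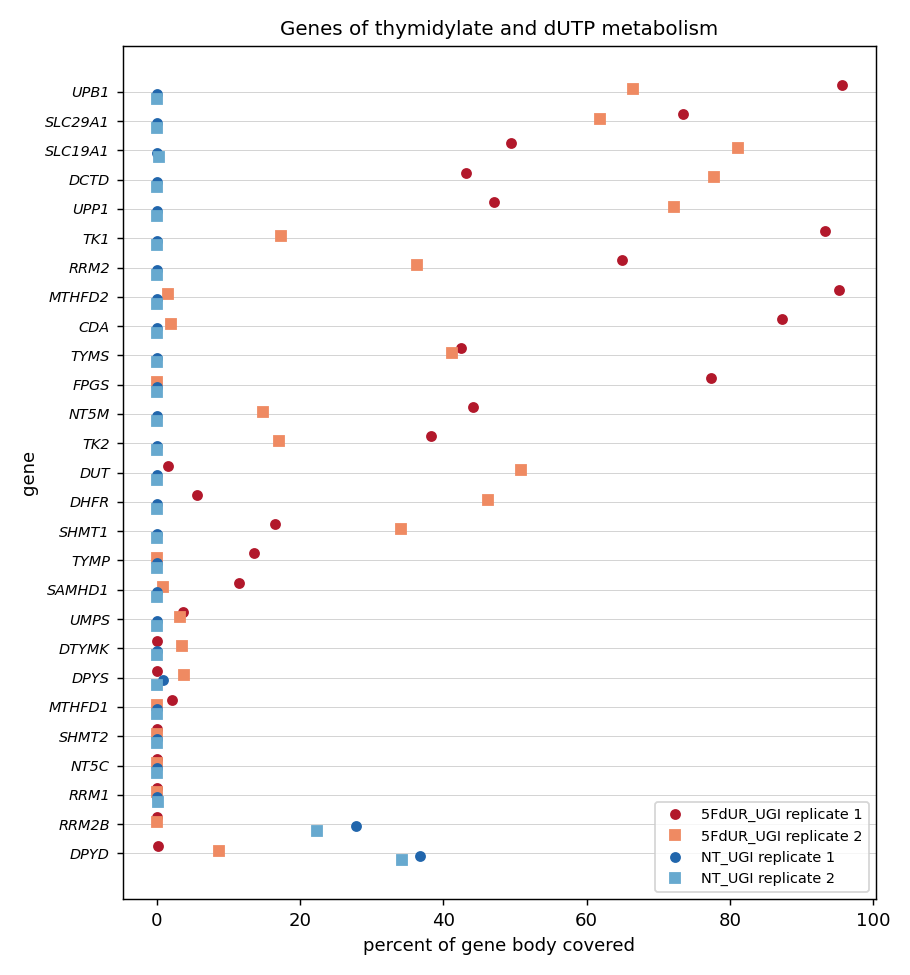
Percent of the gene body covered (x axis) for genes of thymidylate and dUTP metabolism (y axis), 1 point per library. RRM2B and DPYD are the genes with untreated points above the treated ones, and MTHFD2, CDA and FPGS show treated replicates far apart.

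Of the 15 genes of uracil base excision repair 12 were tested, 6 rose (50%, beside 42.2% of all genes tested) and 0 fell by limma, and 0 fell at an unadjusted p under 0.05 as well. APEX1, the main abasic site endonuclease, was covered fully in both 5FdUR_UGI libraries and 0% in both NT_UGI libraries. PARP1, which senses strand breaks, had 89.4% and 81.2% against 0%. UNG itself had 32.8% and 68.9%, and SMUG1 had 75.8% and 41.97%, both against 0%. TDG, the thymine-DNA glycosylase, had 38.5% and 0% against 0% and 6.93%, and its groups overlapped. POLB, the repair polymerase, had 61.2% and 0% against 0% and was not called. Of the 14 mismatch repair genes 12 were tested, 2 rose (16.7%, a smaller share than that of all genes) and 1 fell (8.33%, beside 8.13%). MSH6 had 72.5% and 52.8% against 2.18% and 0%. PMS1 fell, with 0% and 0.213% against 19.9% and 11.95%.

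Of 30 genes of replication licensing and the fork 26 were tested, 11 rose (42.3%) and 3 fell (11.5%). The share that rose was that of all genes, and the share that fell was near the 8.13% of all genes tested. MCM2, MCM3 and MCM5, subunits of the replicative helicase, had 36.6 to 88.8% after 5FdUR and 0% without. The other MCM2-7 subunits were not called. MCM7 had 48.0% and 0% and MCM6 had 11.1% and 1.90%, both against 0%, and MCM4 had no region in any of the 4 libraries. POLE, the catalytic subunit of polymerase epsilon, had 64.7% and 44.9% and POLD1, that of polymerase delta, had 69.3% and 45.7%, both against 0%. Members of the origin recognition complex differed among themselves. ORC6 had 97.7% and 100% against 0%, while ORC4 had 0% in both against 28.2% and 28.9% and ORC5 had 0% in both against 26.3% and 27.5%. ORC3 had 0% in both against 4.65% and 6.71% (adjusted p = 0.0357, limma).

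Of 25 genes known to be induced after DNA damage 22 were tested, 7 rose (31.8%) and 2 fell, beside 42.2% and 8.13% of all genes tested. CDKN1A, the cell cycle inhibitor p21, had 100% and 75.5% after 5FdUR against 0%. GADD45A, a stress response gene, had 84.4% in both against 0%, and BTG2 and PMAIP1 had 100% in both against 0%. SESN1 and RRM2B fell, with SESN1 at 0% and 0.633% against 14.7% and 11.3%. Of 25 driver genes of colorectal cancer 23 were tested, 6 rose (26.1%, beside 42.2% of all genes) and 5 fell (21.7%, beside 8.13%). MYC had 100% and 71.1% against 0%, and SOX9 had 100% in both against 0%. EGFR had 36.8% and 49.8% against 0% and 2.96%. ATM, SMAD4, FBXW7 and ACVR2A were among the 5 that fell. FBXW7, a ubiquitin ligase component, had 5.29% in both against 36.6% and 31.3%.

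Cadherins, SLITRK proteins and protocadherins join cells, many of them in the nervous system. Of 12 type II cadherin genes 5 fell (41.7%, beside 8.13% of all genes tested) and 1 rose (8.33%, beside 42.2%). CDH18 had 0% and 3.43% against 47.8% and 40.1%, and CDH12 had 0% and 3.14% against 41.96% and 32.8%. CDH22 rose, at 83.8% and 87.1% against 0%. Of 15 SLITRK and non-clustered protocadherin genes 3 fell (20%), which were SLITRK6, PCDH7 and PCDH18, and none rose (limma, with 4 that fell and 0 that rose at an unadjusted p under 0.05). SLITRK6 had 0% and 0.714% against 77.1% and 85.7%. The short gene SLITRK1 had 0% and 96.2% against 0% in both, so the treated replicates disagreed. Of 23 very long genes of common fragile sites 22 were tested and 10 fell (45.5%), and none rose (limma, with 16 and 0 at an unadjusted p under 0.05). Of all tested genes of at least 500 kb 41.3% fell and 7.69% rose, so the share that fell was near that of very long genes in general. PTPRD had 0% and 1.17% against 34.5% and 30.1%, NEGR1 had 0% and 0.553% against 38.5% and 36.1%, and DMD, the dystrophin gene, had 0% and 1.37% against 13.9% and 10.6%. These lists have a median GC content of 36.1 to 37.1%, beside 45.3% over all genes.

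HOX genes, which pattern the body axis, had the highest median share after 5FdUR of the 15 lists. All 39 were tested, 35 rose (89.7%, beside 42.2% of all genes tested) and 0 fell by limma, the same counts as at an unadjusted p under 0.05. The median share of the body was 89.7% and 100% after 5FdUR and 0% in both NT_UGI libraries. The genes lie in 4 clusters and neighbours share regions, so they are not independent observations. They are also short and rich in GC, with a median length of 4.22 kb and a median GC content of 54.2%, beside 27.5 kb and 45.3% over all genes. Of tested 100 kb bins, 79.2% rose at 50 to 54% GC and 86.3% at 54% or more. The part of GC content in the HOX share was not tested. HOXC8, HOXB1, HOXA5 and HOXD12 were covered fully in both treated libraries. The 4 not called were HOXB8, HOXD13, HOXD1 and HOXA13. HOXD13 had 0% and 90.9% and HOXD1 had 0% and 100%, both against 0%. Of 47 tested replication-dependent histone genes 12 rose (25.5%), and of 45 cytosolic ribosomal protein genes 11 rose (24.4%), and none of either list fell by limma or at an unadjusted p under 0.05, at which 13 and 14 rose. These shares and those of the next 3 lists were below the 42.2% of all genes that rose. Among olfactory receptors, 24 of 232 tested rose (10.3%) and 84 fell (36.2%, beside 8.13% of all genes). Of 181 tested zinc finger genes of chromosome 19, 25 rose (13.8%) and 8 fell (4.42%). Genes with no region in any of the 4 libraries could not be tested, so shares of tested genes leave them out. This removed 179 of 415 olfactory receptors and 48 of 246 zinc finger genes. It also removed 33 of 79 ribosomal protein and 22 of 69 histone genes, beside 2636 of all 19970 genes. None of 47 tested clustered protocadherins was called by limma, and at an unadjusted p under 0.05 0 rose and 1 fell. Their gene bodies overlap, and the gamma cluster differed between the treated replicates, as for PCDHGA1 at 1.04% and 27.5% against 1.42% and 2.47%.

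Raltitrexed (RTX) also inhibits thymidylate synthase, and RTX_UGI cells received 100 nM for 48 h. Doses of different drugs are not matched, so the comparison is of these treatments only. Long, GC-rich regions were present after RTX too. The RTX_UGI libraries had an N50 of 19400 and 31600 bp, 1515 and 2078 regions of at least 50 kb, and a GC content of 44.8% and 45.2%. The Jaccard index with them was 0.393 and 0.429 for 5FdUR_UGI replicate 1 and 0.209 and 0.234 for replicate 2. Between the 5FdUR_UGI replicates it was 0.416. The covered share was higher after 5FdUR than after RTX in 2142 of 18718 bins tested (11.4%) and lower in 1510 (8.07%). Among genes, 834 of 16749 were higher after 5FdUR (4.98%) and 1551 lower (9.26%). Of the 39 HOX genes tested here 7 were higher after 5FdUR and 0 lower by limma, beside 4.98% and 9.26% of all genes tested. At an unadjusted p under 0.05 in limma 10 were higher and 0 lower. The 7 were HOXC9 and the neighbours HOXD4, HOXD8, HOXD9, HOXD10, HOXD11 and HOXD12, so nearly all lie in 1 cluster. No HOXA or HOXB gene was called, and HOXB1 was covered fully in all libraries of both drugs. HOXD12 had 100% in both 5FdUR_UGI libraries and 0% in both RTX_UGI libraries. UPP1 had 47.0% and 72.3% after 5FdUR and 0% in both RTX_UGI libraries (adjusted p = 0.00406, limma). DCTD had 43.2% and 77.9% after 5FdUR against 0.714% and 0% after RTX. In the other direction SHMT2, the mitochondrial serine hydroxymethyltransferase, had 0% in both against 92.7% and 89.1%. Of the 66 ribosomal protein genes tested here 15 were lower after 5FdUR and none higher by limma, beside 9.26% and 4.98% of all genes tested. At an unadjusted p under 0.05 in limma 22 were lower and 2 higher.

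The MMR proficient HCT116 cells, which carry an added chromosome 3, were given 5FdUR as well. The difference between 5FdUR and no drug was more positive in the MMR deficient than in the proficient cells in 577 of 27510 bins (2.1%) and more negative in 1001 (3.64%) by an interaction term in limma. The values that follow also chose these bins. In the MMR deficient cells the 577 bins were covered to 58.7% and 32.7% after 5FdUR and 0.506% and 0.554% without drug. In the proficient cells they had 1.28% and 0.927% against 0.811% and 0.850%. Their mean GC content was 49.4% and they held 2.58 gene starts per bin. In the 1001 bins, with a GC content of 40.4%, the mean shares moved in opposite directions. The MMR deficient cells had 0.136% and 0.565% after 5FdUR against 7.79% and 8.69% without, and the proficient cells had 22.1% and 24.5% against 6.50% and 6.87%.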

How the data were processed

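U-DNA-Seq regions of 4 HCT116 libraries (2 5FdUR_UGI, 2 NT_UGI) were compared, with RTX_UGI and MMR proficient libraries as references. The authors aligned reads to GRCh38 with BWA 0.7.17-r1194, removed duplicates (Picard), ambiguously mapped reads and blacklisted segments, and computed smoothed coverage in bins of 100 bp with deepTools 3.2.1. They deposited regions above a log2 threshold tuned per library, each with a log2 value of enriched over input coverage. That column has no heading. Smoothing limits how sharply a region edge is placed. Sequencing was at 2 sites on different platforms, and the one used for each library is not given in the sources used here. Input, mock, K562 and peak data were not analysed here.

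Covered shares were computed on chromosomes 1 to 22 and X with GENCODE release 44 genes, in Python 3.11.15 with NumPy 2.4.6. Bins needed 50% known bases. Shares were fitted as log2(percent + 1) by limma 3.58.1 (R 4.3.3; lmFit, eBayes with trend) for features with a mean of at least 1%, two-sided, with a call at an adjusted p under 0.05. Members of the 15 gene lists may be named. Otherwise the 10 genes of at least 50 kb with the largest difference in each direction (at most 1 per 2 Mb), the 5 longest runs with at most 3 genes each, and the 3 highest and lowest chromosomes are named. The comparison and the lists were chosen with earlier results of these data known, so no list is independent evidence.

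The fit was tested on simulated data in 3 designs, the second and the third written after the first had given no calls. In the first, where few features changed, none of the planted changes was called, although the mean estimates were close to the planted sizes. In the others, where most features differed as in the real libraries, the share of planted changes called rose with their size. Many changes were missed, and among genes this held for most changes up to a log2 change of 3. Of 100 planted gene changes, 21 and 17 were called at a log2 change of 2, and 42 and 38 at 3. Of 100 bin changes, 28 and 26 were called at 2, and 61 in both designs at 3. At a log2 change of 4, planted in the last design only, 68 of 100 genes and 86 of 100 bins were called. In these designs 61 to 84 of 1000 features with equal means were called. The adjusted limit of 0.05 concerns the share of false calls among all calls, so it is not the same measure as this rate. Calls of this fit therefore depend on how many other features differ, and a feature not called may still have changed. Values of some list members and one window are not reported here. Replicate numbers did not pair the libraries.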

Additional observations from a re-analysis of the deposited data

Results flagged for a closer look

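The effect of 5FdUR on the covered share of 100 kb bins differed between the MMR states by an interaction term in limma. The difference between 5FdUR and no drug was more positive in the MMR deficient cells in 577 bins and more negative in 1001 bins, of 27510 tested. Each condition had 2 libraries, and the lowest log2 value of the MMR proficient 5FdUR libraries was 0.2 and 0.13, beside 0.25 and 0.14 in the MMR deficient ones. The part of these thresholds in the difference was not tested.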

How the results depend on the processing

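The count of bins stayed within 1.5 times its value in both directions with a pseudocount of 5 or 0.2, no filter on low shares, shares divided by the genome share, all 14 HCT116 libraries in the fit, the replicate block, and regions of at least 5 kb. Dividing by the genome share gave 6757 higher and 9307 lower bins and 6688 higher and 1683 lower genes. With regions up to 300 Mb, bins were 4258 higher and 11544 lower, and genes 3331 higher and 2221 lower. With a log2 value of at least 0.33 they were 3225 and 11878 bins, and 2541 genes were higher and 1690 lower. Bins of 50 kb gave 12575 higher and 13891 lower, and bins of 1 Mb gave 1232 and 845, so that higher calls outnumbered lower ones. Genes that fell numbered 2066 with all 14 libraries, 698 with the replicate block and 787 with regions of at least 5 kb. The replicate block left 7321 higher and 7610 lower bins and 5877 higher genes. The numbers were given by the labels, and the correlation of same-numbered deviations across bins was -0.0375, so the block has no basis in the data. Leaving out a library, after which the lone one of its condition was assumed to vary like the other pair, gave 3532 to 5969 higher bins, 4470 to 8973 lower bins, 4033 to 9320 higher genes and 886 to 1893 lower genes. The gene fits that left out a 5FdUR_UGI library had zero residual variance in 52.8% and 55.5% of the genes, and limma warned that their moderated variances are unreliable.

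Bins that did not overlap between groups numbered 5296 higher with regions up to 300 Mb, 4457 higher with a log2 value of at least 0.33, and 7062 lower with regions of at least 5 kb. The log2 ratio of N50 was 2.66 up to 300 Mb and 2.41 at a log2 value of at least 0.33, and 0.74 to 1.98 with a library left out. The difference in GC content was 13.7, 14.3 and 13.9 percentage points for the 3 sets of regions and 13.2 in the merged files. The Jaccard index between groups was 0.00522, 0.00412 and 0.00283 for these sets and 0.00538 in the merged files. The share of 5FdUR_UGI regions that touched a region of a given NT_UGI library was 4.12% and 6.09% in replicate 1 and 9.61% and 11.2% in replicate 2, with a mean of 7.76% over the 4 pairs. The causes of these shifts were not tested. Of 89 named genes that were called, 27 kept the call in every setting that gave a value. The sign turned only for genes that were not called. TDG had -1.49 without 5FdUR_UGI replicate 1, -0.33 without NT_UGI replicate 1, 3.81 without 5FdUR_UGI replicate 2 and -1.49 up to 300 Mb, and SLITRK1 had -3.56 with 10 kb added on each side (log2 scale). The region files hold no read counts and read totals were not used here, so no limit from depth is given.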
